A study of Rattus norvegicus with 6 samples.

Results

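The roundabout (Robo) receptors and their Slit ligands were followed in primary rat brain microvascular endothelial cells (rBMECs), whose tight monolayer lines brain capillaries and limits what passes from blood to tissue. The 7 genes Robo1 to Robo4 and Slit1 to Slit3 were taken by name from the table of read counts, where they make up 7 of 33566 rows. The family was chosen by the measured difference of Robo3 between the groups, the gene with the smallest p of all, so the differences of the members between groups are given as a description. No p is given for them, and whether a member passed the thresholds of the fit is stated for completeness and is not independent evidence. Of the 7 members, 5 held at least 10 reads summed over the libraries and entered the fit across 14603 genes. Robo2 and Slit1 did not.

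The cells were isolated with a commercial kit from the cerebral cortex, as the labels have it (the study's methods name the forebrain), of SD rats aged 18 to 22 days and were used after 1 passage. The 3 Hcy libraries came from cells given homocysteine (Hcy), a sulfur amino acid formed from methionine, for 24 h. Their labels give a dose of 100 µM, while the treatment protocol also names a solution of 50 µM. The 3 Veh libraries came from cells given water as vehicle, and no genetic change is named for either group. The replicates are described as biological, without saying whether they came from separate isolations, so the errors below measure the spread between these cultures. Libraries of poly(A) RNA held 14024997 to 16634356 counted reads in Hcy and 14786920 to 16764584 in Veh. At these depths 3 reads correspond to 0.178 to 0.215 CPM (counts scaled to library size). Principal component 1, with 31.6% of the variance, parted Hcy from Veh, and component 2, with 29.3%, set Veh replicate 3 apart from the other Veh libraries. RNA was taken from whole cultures, so fewer cells of a type and less RNA per cell cannot be told apart.

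Slits are secreted proteins that bind Robo receptors together with heparan sulfate, a sugar chain of the cell surface. Bound Robo1 and Robo2 recruit adaptors and GTPase regulators that act on the actin cytoskeleton, and growing axons and migrating cells then turn away from the Slit source. Robo3 is best known from the developing nervous system, where commissural axons need it to cross the midline. Mammalian Robo3 binds Slits poorly and serves as a receptor for Nell2. Robo4 is the endothelial member of the family and is known for keeping vessels from leaking.

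Robo3 and Robo4 lie side by side in the rat genome and are read toward each other in the RefSeq annotation. The 250 bases before each start site are printed because the counts of these neighbours turned out so unlike. The sequences are from RefSeq, assembly GRCr8, and each is written 5′ to 3′ along its own gene with CG dinucleotides, the sites of DNA methylation, in capitals.
Robo3, chr8:45340223-45340472, minus strand: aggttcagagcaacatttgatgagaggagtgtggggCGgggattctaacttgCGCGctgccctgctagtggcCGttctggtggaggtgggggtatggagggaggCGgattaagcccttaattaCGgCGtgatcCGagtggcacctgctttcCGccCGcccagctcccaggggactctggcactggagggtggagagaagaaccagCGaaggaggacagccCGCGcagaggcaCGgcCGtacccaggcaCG
Robo4, chr8:45308489-45308738, plus strand: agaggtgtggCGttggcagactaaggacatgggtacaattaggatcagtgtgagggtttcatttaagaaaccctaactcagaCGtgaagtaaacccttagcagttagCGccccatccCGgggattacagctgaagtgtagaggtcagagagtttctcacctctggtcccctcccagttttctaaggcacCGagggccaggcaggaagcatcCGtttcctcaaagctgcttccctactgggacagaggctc
The Robo3 window held 16 CG dinucleotides and a GC content of 62.8%, and the Robo4 window held 6 and 52.4%. Over 33469 such windows of the annotation the median was 5 CG (quartiles 2 and 15) and 51.2% GC. A count as low as that of Robo3 or lower was found in 78.1% of windows, and for Robo4 in 54.8%. Of the other members, Slit3 held 20 CG in its window, Robo2 held 17, and the listed start sites of Robo1 held 9 and 11. Windows were at hand for 5 of the 7 members. The letters TGATGNAA, a composite motif of ATF4 and C/EBP, were searched on both strands and were in 3.4% of all windows. Those of TGACNNNGC, the core of the antioxidant response element, were in 10.1%. Neither was found in a member's window. DNA methylation was not analysed here.

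Robo3 was the member with the widest gap between the groups. Hcy replicates 1, 2 and 3 held 537, 479 and 686 Robo3 reads, and Veh replicates 1, 2 and 3 held 44, 37 and 39. Every Hcy library stood far above every Veh library, and within each group the libraries lay close together. In CPM the Hcy values were 38.6, 32.2 and 40.9, and the Veh values were 2.61, 2.36 and 2.70. Hcy cultures averaged 37.2 ± 4.53 CPM (n = 3, SD) and Veh cultures 2.56 ± 0.178 CPM (n = 3, SD). This is 14.5-fold, or 3.86 on the log2 scale (SE 0.14, 95% interval 3.54 to 4.18). When single libraries were left out, the log2 fold change of Robo3 lay between 3.79 and 3.96. Robo3 (ENSRNOG00000030016) has the listed position chromosome 8, 39892792 to 39907478, minus strand. The count table names no genome build, so positions are those it lists. They run past the end of chromosome 1 in mRatBN7.2, the build the processing notes name, and are not to be read as its coordinates.

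The place of Robo3 among all genes depends on the measure. By p it was gene 1 of the 14603 tested, and by the size of the log2 fold change gene 50. Of the 49 genes with a larger fold change, 19 had a mean level of at least 1 CPM. Of these 19, 3 passed the threshold of the fit, namely Rbm39, which was lower in Hcy, and the unnamed loci AABR07044362.1 and AABR07073045.1, which were higher. The coefficient of variation of Robo3 was 12.2% over the Hcy libraries and 6.95% over the Veh libraries. The 2285 genes within 1.5-fold of its mean over both groups, 19.9 CPM, had medians of 7.89% and 10.7%. Among them the Hcy value of Robo3 was at percentile 78.8. Robo3 itself lay above that range in Hcy and below it in Veh, so within a group these genes are not of like level. A gene was called where edgeR's quasi-likelihood test gave it an adjusted p no greater than 0.05 together with a log2 fold change of 1 or more in either direction. Of the 14603 genes, 71 were called, or 0.486% (0.253% higher and 0.233% lower in Hcy), and among the 7 members 1 was called, Robo3. With DESeq2, which called 0.644% of all genes, the called member was again Robo3 alone.

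**Figure D1:**
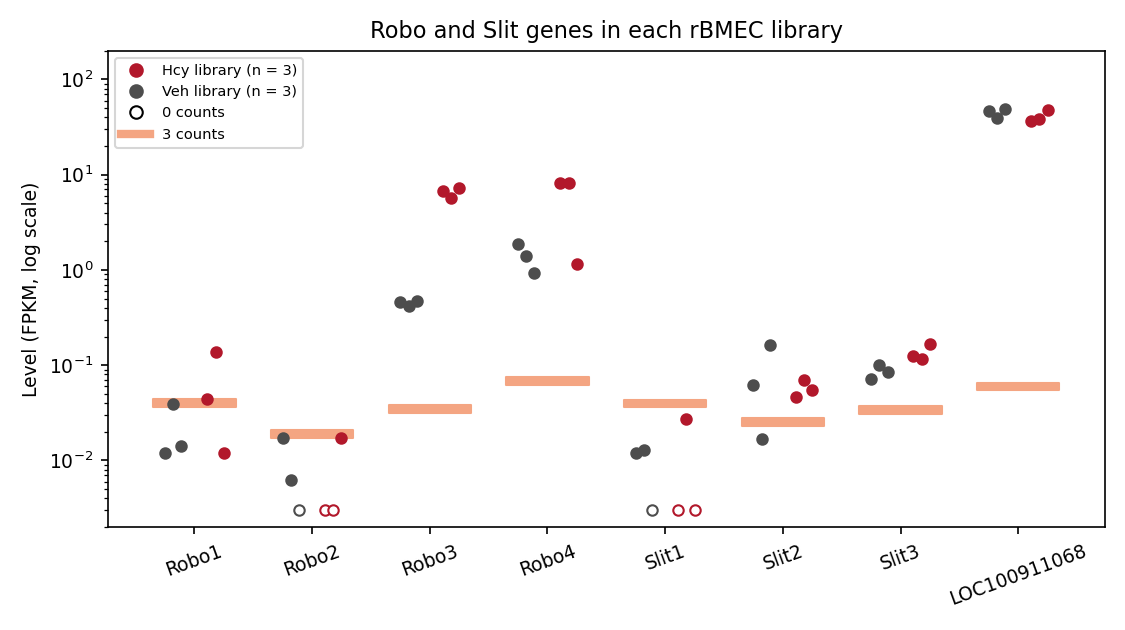
Level of each Robo and Slit gene, and of the LOC100911068 row of Robo4, in each library, in FPKM (CPM per kilobase of gene length) on a log axis. Filled points are libraries (red Hcy, grey Veh), open points at the bottom are libraries with 0 counts, and each orange bar marks the level that 3 counts give for that gene. Robo3 in Hcy (mean 6.55 FPKM) stands clear of Veh (mean 0.450 FPKM), while Robo4 overlaps between the groups and Robo1, Robo2 and Slit1 lie near or under 3 counts.

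Robo4 needs its rows told apart, since the table counts reads on more than 1 row for it. The row named Robo4 (ENSRNOG00000049289) has the listed position chromosome 8, 39083327 to 39093277, minus strand, away from Robo3. A row named LOC100911068 (ENSRNOG00000050964), on the plus strand from 39878955 to 39890942, ends 1850 bases from Robo3 and lies between Hepacam and Robo3. RefSeq uses the number in this row's name as the identifier of Robo4, lists no other Robo4 gene, and places Robo4 between the same neighbours. The authors' table gives both rows the same Swiss-Prot match. How reads that fit both rows were counted is not given in the sources used here, so the split between the rows is uncertain.

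The row named Robo4 held 331, 349 and 56 reads in Hcy replicates 1, 2 and 3 and 91, 63 and 39 in Veh replicates 1, 2 and 3. Hcy replicates 1 and 2 were high, and Hcy replicate 3 was lower than Veh replicates 1 and 2, so the groups overlapped. The mean was 16.8 ± 11.7 CPM (n = 3, SD) in Hcy and 4.04 ± 1.35 CPM (n = 3, SD) in Veh, a log2 fold change of 2.04 (SE 0.61, 95% interval 0.66 to 3.43) that was not called. Without Hcy replicate 3 it was 2.54 and passed the threshold. Its biological coefficient of variation in the fit was 0.491, against a median of 0.144 among 1854 genes. These lay within 1.5-fold of its mean over both groups, a range that held neither group mean of this row. That of Robo3 was 0.127, against a median of 0.120 among genes matched to it in the same way.

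The LOC100911068 row held far more reads, 1663, 1864 and 2645 in the Hcy replicates and 2559, 2034 and 2330 in the Veh replicates. The groups overlapped. Its mean was 134 ± 20.7 CPM (n = 3, SD) in Hcy and 148 ± 16.3 CPM (n = 3, SD) in Veh. The log2 fold change was -0.14 (SE 0.12, 95% interval -0.41 to 0.14) and was not called.

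Summed over both rows, Robo4 reads were 1994, 2213 and 2701 in Hcy and 2650, 2097 and 2369 in Veh. The sums lay in the same range in both groups. The mean was 151 ± 9.23 CPM (n = 3, SD) in Hcy and 152 ± 16.0 CPM (n = 3, SD) in Veh. The log2 fold change of the sum was -0.0056 (SE 0.09, 95% interval -0.22 to 0.20). The sum was formed after the values were seen. Of these summed reads, the row named Robo4 held 16.6%, 15.8% and 2.07% in the Hcy replicates and 3.43%, 3.00% and 1.65% in the Veh replicates. The Hcy libraries with many reads on that row were thus the ones with the fewest on LOC100911068. Whether reads moved between the rows in counting was not tested.

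**Figure D2:**
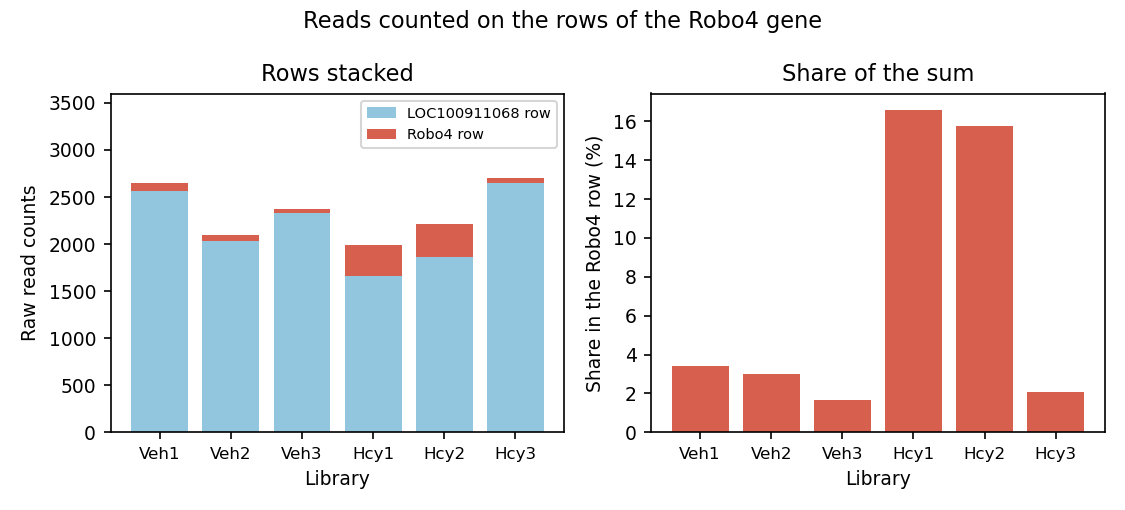
Left, raw reads counted on the LOC100911068 row (blue) and on the row named Robo4 (red), stacked, in each library. Right, the share in percent of the sum that fell on the row named Robo4. The sums lie between 1994 and 2701 reads in all 6 libraries, while the share is 16.6% and 15.8% in Hcy replicates 1 and 2 and at most 3.43% elsewhere.

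Robo1 and Robo2, the receptors through which Slits repel axons, were close to the limit of detection. Robo1 (ENSRNOG00000029614, chromosome 11 from 9642365 to 10143317, plus strand) had 3, 10 and 1 reads in the Hcy replicates and 1, 3 and 1 in the Veh replicates. Only Hcy replicate 2 was above 3 reads. The ratio of Hcy to Veh, scaled to library size, was 2.89 with an exact 95% counting interval of 0.983 to 10.2, and the fitted log2 fold change was 1.48 (SE 1.02, 95% interval -0.84 to 3.80), not called. It was 0.90 with a prior count of 2, and without Hcy replicate 2 Robo1 had too few reads to be fitted. Robo2 (ENSRNOG00000029598, chromosome 11 from 11062790 to 11585765, minus strand) had 0, 0 and 3 reads in Hcy and 3, 1 and 0 in Veh, at a ratio of 0.773 (counting interval 0.113 to 4.57). These counting intervals cover counting error only, leave out the spread between cultures, and are not limits of detection. How large a difference in Robo1 or Robo2 would have been detected was not tested. Neither came near the 1702 reads that Robo3 gathered over the Hcy libraries.

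The Slit genes were likewise at low counts. Slit3 (ENSRNOG00000007377, chromosome 10 from 20320878 to 20518518, plus strand) had 10, 10 and 16 reads in Hcy and 7, 9 and 7 in Veh. In CPM its Hcy libraries all lay above its Veh libraries, at 0.781 ± 0.152 (n = 3, SD) against 0.491 ± 0.0792 (n = 3, SD). Slit3 and Robo3 were the members in the fit with every Hcy library above every Veh library, as were 10.8% of all genes tested. The log2 fold change of Slit3 was 0.67 (SE 0.41, 95% interval -0.26 to 1.60), and it was not called. Slit2 (ENSRNOG00000003840, chromosome 14 from 66831848 to 67170361, minus strand), a ligand described in vessels as well as in the nervous system, had 5, 8 and 7 reads in Hcy and 8, 2 and 18 in Veh. Veh replicate 3 held most of its Veh reads. The log2 fold change of Slit2 was -0.46 (SE 0.72, 95% interval -2.09 to 1.16) and was 0.51 without Veh replicate 3. Slit1 (ENSRNOG00000026065, chromosome 1 from 260843483 to 260992366, minus strand), mostly a ligand of the nervous system, had 0, 2 and 0 reads in Hcy and 1, 1 and 0 in Veh, at a ratio of 1.03 (counting interval 0.0747 to 14.2).

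**Figure D3:**
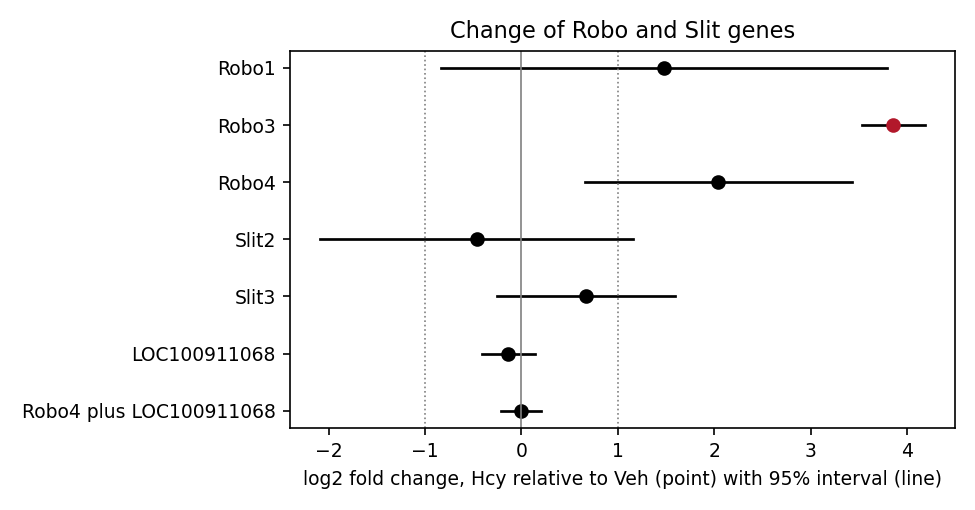
Log2 fold change of Hcy relative to Veh (points) with its 95% interval (lines) for the 5 members in the fit, the LOC100911068 row and the sum of the Robo4 rows. The dotted lines mark a log2 fold change of 1 in either direction and red marks the called gene. Robo3 lies at 3.86 with the narrowest interval of the 5 members, the row named Robo4 at 2.04 with a wide interval, and the sum of the Robo4 rows at -0.0056.

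Levels were also put in order per gene length. In Veh the order of mean FPKM was LOC100911068 at 45.0, the row named Robo4 at 1.40, Robo3 at 0.450, Slit3 at 0.0853, Slit2 at 0.0804, Robo1 at 0.0216, Slit1 at 0.0083 and Robo2 at 0.0078. From Slit3 downwards, neighbours in that order did not differ beyond their spread. In Hcy the order was LOC100911068 at 40.9, Robo3 at 6.55 ± 0.798 (n = 3, SD), the row named Robo4 at 5.84 ± 4.05 (n = 3, SD), Slit3 at 0.136, Robo1 at 0.0639, Slit2 at 0.0571, Slit1 at 0.0091 and Robo2 at 0.0058. The row named Robo4 was above Robo3 in Hcy replicates 1 and 2 and below it in Hcy replicate 3, so these neighbours did not differ beyond their spread there, nor did neighbours from Slit3 down to Slit2, nor Slit1 and Robo2. Of the FPKM summed over the 7 members and LOC100911068, Robo3 made up 13.1%, 10.8% and 12.7% in the Hcy replicates and 0.941%, 0.999% and 0.934% in the Veh replicates. Even in Hcy, Robo3 remained well below LOC100911068, which made up 70.5% to 84.8%.

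The genes next to Robo3 were set beside it. Within 100 kb of it in the listed positions lie Ccdc15, Hepacam, LOC100911068, Msantd2 and Esam. Of these 5, edgeR called 0, against 0.486% of all genes tested, so a count of 0 is usual for so few genes. Esam, an adhesion molecule of endothelial junctions, was at 612 ± 37.1 CPM (n = 3, SD) in Hcy and 549.5 ± 34.0 CPM (n = 3, SD) in Veh, a log2 fold change of 0.16 (edgeR adjusted p = 0.426). The log2 fold change was 0.27 for Msantd2 (edgeR adjusted p = 0.522), -0.28 for Hepacam, a glial adhesion molecule (edgeR adjusted p = 0.677), and -0.19 for Ccdc15 (edgeR adjusted p = 0.932). Near the row named Robo4, Stt3a, a subunit of the oligosaccharyltransferase, was at 377 CPM in Hcy and 376 in Veh, and Acrv1 had 0 reads in all 6 libraries.

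**Figure D4:**
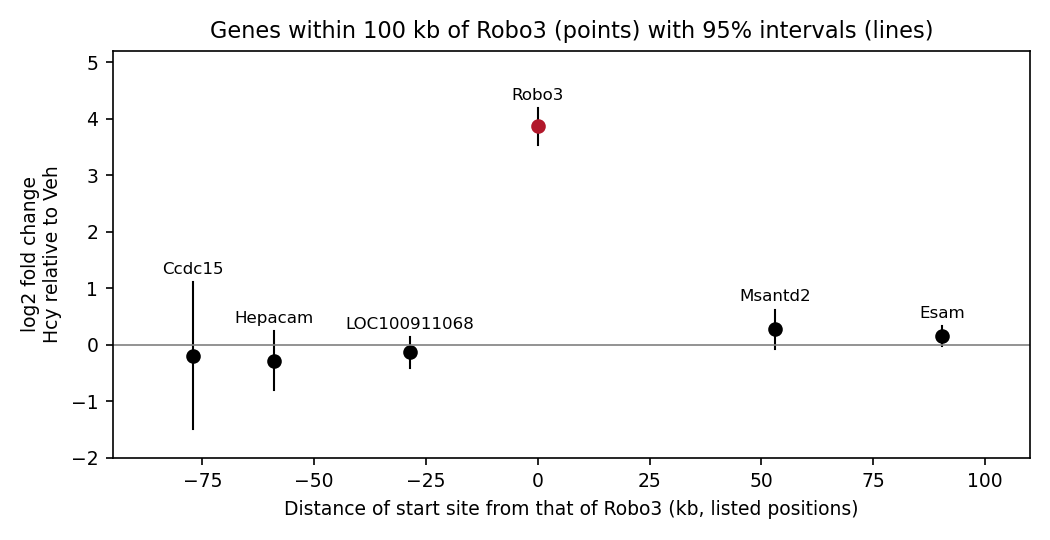
Log2 fold change of Hcy relative to Veh (points) with 95% intervals (lines) for genes within 100 kb of Robo3, against the distance of their start sites from that of Robo3 in kb. Robo3 stands at 3.86 and its 5 neighbours lie between -0.28 and 0.27.

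The genes whose levels followed Robo3 most closely over the 6 libraries were Nrep, AABR07044362.1, Nsg1, Dmtn and Sparcl1. Their Pearson r with Robo3, on log2(CPM + 1) and among genes of at least 1 CPM, was 0.999, 0.997, 0.996, 0.996 and 0.996. The 6 points share their libraries and fall into 2 groups, so r mostly reflects the gap between Hcy and Veh and is a description. The log2 fold changes were smaller than that of Robo3 in Nrep (0.84), Nsg1 (1.07), Dmtn (1.64) and Sparcl1 (1.93). In the pseudogene AABR07044362.1 it was 5.33, from 84, 74 and 91 reads in Hcy and 1, 1 and 4 in Veh. Nsg1 encodes a protein of neuronal endosomes, Dmtn the actin-bundling protein dematin, and Sparcl1 a secreted matricellular protein.

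Genes known to work with Slits and Robos were listed by role, 66 in all, and 57 of them were tested. Of these 57, edgeR called 0 and DESeq2 called 0, against 0.486% and 0.644% of all genes tested. In edgeR 7 had an unadjusted p of at most 0.05, which 13.4% of all genes tested had. The log2 fold changes of the 57 had a median of -0.0092, against -0.02 over all genes tested, with 27 higher and 30 lower in Hcy. They ran from -1.35 to 0.64. The groups did not overlap in 5 partners higher in Hcy and 5 lower, against 10.8% and 9.27% of all genes tested, or 20.1% in either direction. Without the fold-change threshold 2 of the 57 passed the adjusted p, against 2.34% of all genes.

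Other ligands and co-receptors comprised 18 genes, 13 of them tested, with a median log2 fold change of -0.07. Cxcr4, the receptor for the chemokine Cxcl12 whose signalling Slits can dampen, had 1624, 1734 and 2127 reads in Hcy and 1466, 1106 and 1065 in Veh. In CPM every Hcy library was above every Veh library. It rose from 77.1 ± 8.77 to 120 ± 6.00 CPM (n = 3, SD), a log2 fold change of 0.64 (SE 0.09, edgeR adjusted p = 0.0120), which is under the fold-change threshold. The edgeR adjusted p of Cxcr4 exceeded 0.05 in 4 of the 6 fits with a library omitted, at 0.0589, 0.0516 and 0.0807 without Hcy replicates 1, 2 and 3 and 0.0524 without Veh replicate 2. Cxcl12 itself was among the most abundant of all partner transcripts, at 2688 CPM in Hcy and 3144 in Veh (log2 fold change -0.23, edgeR adjusted p = 0.366). Without Veh replicate 3 the value of Cxcl12 was -0.34 (edgeR adjusted p = 0.00175), and without Veh replicate 2 it was -0.16 (edgeR adjusted p = 0.631). The surface proteoglycans Sdc3 and Sdc1 had log2 fold changes of 0.03 and -0.47, and Dag1, the dystroglycan that localizes Slits, one of 0.10, none past the threshold. Unc5b, an endothelial netrin receptor that binds Robo4, was at 62.4 CPM in Hcy and 65.4 in Veh. Nell2, the ligand of Robo3, had 0, 2 and 0 reads in Hcy and 1, 0 and 2 in Veh. Its relative Nell1 had 2, 1 and 2 reads in Hcy and 0 in each Veh library, all under 3 reads. Ntn1, which encodes netrin-1, had at most 3 reads in any library, and its receptor gene Dcc had 0 in all 6. The medium was not measured, so ligand from it was not analysed here.

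The enzymes that build and trim heparan sulfate comprised 11 genes, 10 of them tested, with a median log2 fold change of -0.08. Sulf1, a sulfatase that removes 6-O-sulfate from the chains outside the cell, had 758, 889 and 953 reads in Hcy and 1823, 1463 and 1160 in Veh. All Hcy libraries were below all Veh libraries. It fell from 93.9 ± 13.97 to 57.0 ± 2.64 CPM (n = 3, SD), a log2 fold change of -0.72 (SE 0.11, edgeR adjusted p = 0.0131), also under the fold-change threshold. That of Sulf1 too exceeded 0.05 in 4 of those fits, with edgeR adjusted p of 0.0794, 0.0579 and 0.0825 without Hcy replicates 1, 2 and 3 and 0.0515 without Veh replicate 2. Its relative Sulf2 was at 159 CPM in Hcy and 148 in Veh. The polymerase genes Ext1, Ext2 and Extl3 had log2 fold changes of -0.0092, 0.06 and -0.26, and the sulfotransferase Ndst2, with at most 33 reads in a library, one of -0.70. These did not pass. Extl3 was at 100.6 CPM in Veh replicate 3 and at 163 in each of the other Veh libraries, and without Veh replicate 3 its log2 fold change was -0.45 (edgeR adjusted p = 0.00275), still under the fold-change threshold. Without Veh replicate 1 it was -0.15 (edgeR adjusted p = 0.814).

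The cytoplasmic effectors, 27 genes with 24 tested, had a median log2 fold change of 0.0047. The GTPases Rhoa and Rac1 had log2 fold changes of 0.06 and 0.0078, the actin regulator Cap1 0.03, and the adaptor paxillin (Pxn) -0.12. Abl1, a tyrosine kinase that phosphorylates Robo, was the partner with the lowest value over all 6 libraries, -1.35, from 15, 13 and 187 reads in Hcy and 229, 308 and 12 in Veh. The groups overlapped and the libraries of each group differed widely (edgeR adjusted p = 0.651). With a library left out its value ran from -3.54 without Hcy replicate 3 to -0.71. Abl1 and Pak2 each share their Swiss-Prot match with another tested row, as Robo4 does, so their reads can also have been split. Abl2, with a log2 fold change of -0.35 that ran from -0.71 without Hcy replicate 2 to -0.04 without Veh replicate 1, did not pass either.

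Genes of receptor trafficking and cleavage, 10 with 10 tested, had a median log2 fold change of 0.05. The ubiquitin ligase Nedd4 and its adaptor Ndfip1, which lead Robo1 to degradation, had log2 fold changes of 0.07 and 0.06. Adam10, the protease that sheds Robo ectodomains, had a log2 fold change of 0.09. Prrg4, which holds back Robo1 from the surface, was at 42.4 ± 6.97 CPM (n = 3, SD) in Hcy and 59.7 ± 21.6 CPM (n = 3, SD) in Veh, with a log2 fold change of -0.49 (edgeR adjusted p = 0.449). Without Veh replicate 3 it was -0.75 (edgeR adjusted p = 0.00622), and without Veh replicate 2 it was -0.25 (edgeR adjusted p = 0.738).

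**Figure D5:**
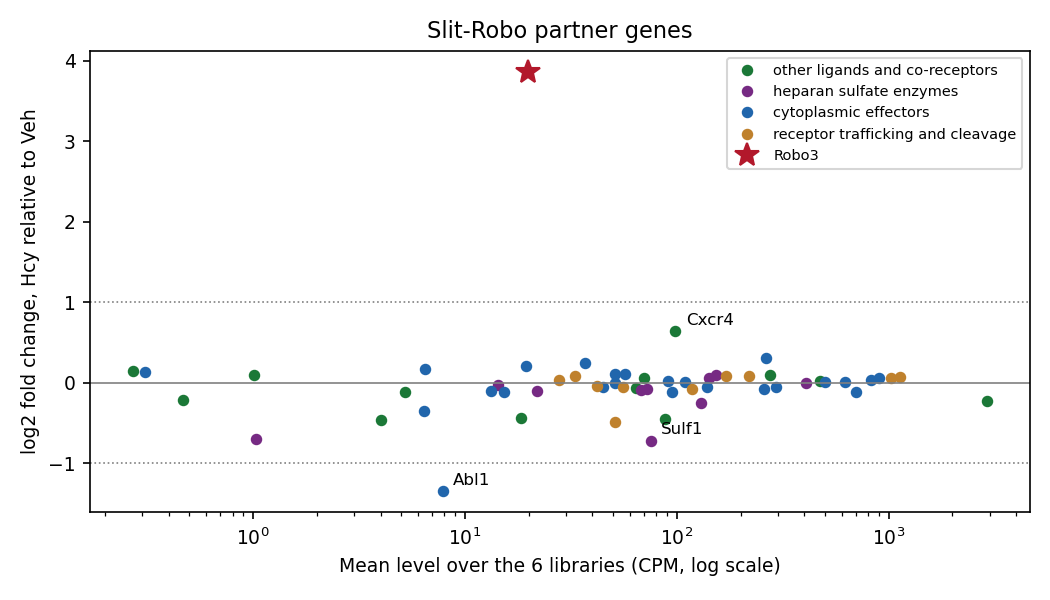
Log2 fold change of Hcy relative to Veh against the mean level over the 6 libraries, in CPM on a log axis, for the 57 partner genes tested, coloured by role, with Robo3 as a star. Dotted lines mark a log2 fold change of 1 in either direction. The partners lie between -1.35 and 0.64 and Robo3 at 3.86.

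Since Robo3 is best known from neurons, cell type markers were set beside its values. The endothelial list was high in every library, summed to 11512 to 11934 CPM in Hcy and 10065 to 11595 in Veh. Of its 18 markers 15 were tested, and edgeR called 0 of them. Over all genes tested the share called was 0.486%, which applies to the lists below as well. The junctional cadherin Cdh5 was at 1961 CPM in Hcy and 1796 in Veh, whereas Cldn5, which encodes Claudin-5, had 0 reads in all 6 libraries. The study reports Claudin-5 protein in rBMECs, and whether Cldn5 reads were lost in counting was not tested. The listed markers Pecam1 and Abcb1a had no row of that name. Of the 15 endothelial markers tested, 4 had every Hcy library above every Veh library (Kdr, Flt1, Vwf and Tie1, log2 fold changes 0.11 to 0.37) and 5 had every one below (Slc2a1, Mfsd2a, Slco1a4, Tek and Eng, -0.53 to -0.24), against 20.1% of all genes in either direction. Of 12 neuronal markers, 3 were tested and 0 were called by edgeR, and Rbfox3, Snap25, Map2, Dcx, Nefl and Elavl4 had 0 reads in all libraries. The neuronal list summed to 6.85 to 10.1 CPM in Hcy and 5.42 to 7.54 in Veh. Most of this was Tubb3, at 6.29 ± 1.12 CPM (n = 3, SD) in Hcy and 5.05 ± 0.847 CPM (n = 3, SD) in Veh. Syt1, a synaptic vesicle protein, was higher in every Hcy library, at 2.27 CPM against 1.25 (log2 fold change 0.85, edgeR adjusted p = 0.195). Robo3 alone, at 37.2 CPM in Hcy, exceeded the sum of this list there, whereas in Veh, at 2.56 CPM, it was below that sum. Astrocyte markers summed to at most 1.66 CPM, microglial ones to at most 2.08 and epithelial ones to at most 0.835 in any library. Oligodendrocyte markers, mainly Mog, were at 10.6 to 12.4 CPM in Hcy and 11.3 to 11.4 in Veh, and pericyte markers at 4.65 to 7.19 and 3.50 to 4.64. Fibroblast markers summed to 35.7 to 57.8 CPM in Hcy and 57.5 to 83.9 in Veh. Smooth muscle markers were lower in Hcy, at 673 to 702 CPM against 1120 to 1348. Of the smooth muscle markers, 3 of the 4 tested passed the adjusted p, all lower, against 2.34% of all genes tested in either direction. Cnn1 was the marker called among all lists (log2 fold change -1.39, edgeR adjusted p = 0.00177). Their part in the values of the Robo and Slit genes was not tested.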

How the data were processed

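RNA was sequenced from 3 Hcy and 3 Veh cultures of rBMECs, grouped by their titles. As deposited by the authors, the count table holds the raw number of reads on each gene, with positions, gene lengths in bases (an annotation column) and Swiss-Prot matches. The submitters' processing notes name fastp, HISAT2 2.2.1, StringTie 2.2.3, Cufflinks, featureCounts 2.0.6 and DESeq2 1.42.0, and the builds mRatBN7.2 and rn7. The count table itself names no build, and its positions run past the end of chromosome 1 in mRatBN7.2, so they are not of that build. Strand and multi-mapping settings are not given in the sources used here. A deposited table of the authors' own comparison holds normalized signal, log2 fold changes and p-values and was not used. No column belonged to other samples.

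The tools were edgeR 4.0.16, DESeq2 1.42.0 and limma 3.58.1 under R 4.3.3. A gene needed 10 summed counts to be kept, TMM factors lay between 0.977 and 1.02, and condition was the only term of edgeR's quasi-likelihood model. Adjusted p are Benjamini-Hochberg values over all tested genes. Log2 fold changes used a prior count of 0.125. CPM are TMM-scaled, and FPKM are CPM divided by the deposited gene length in kilobases. Ratios of summed reads carry exact 95% intervals, which cover counting error only. The test recovered large changes planted in simulated data, in genes with more summed reads than Robo1, Slit2 or Slit3 had. Smaller changes and genes of lower counts were not simulated. Named genes were all members, called partners, in each list the 4 partners of highest mean CPM and the 2 of largest fold change at 1 CPM or more, neighbours within 100 kb, the 5 genes most like Robo3, and defining markers. Others were named after their values were seen. A partner gene that this rule names is not reported here. Alternatives were DESeq2, its size factors, library totals, other count minimums, a prior count of 2, unadjusted p, no fold threshold, a replicate block, each library left out and, added after seeing the data, the Robo4 rows summed. The members and lists were chosen with earlier results of these data known. RefSeq (GRCr8) served for names, gene order and promoter sequences.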

Additional observations from a re-analysis of the deposited data

How the results depend on the processing

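The log2 fold change of Robo3 stayed between 3.79 and 3.96 in the fits that left out a library and was called in each of these 6. Among the 7 members 1 was called, and this became 2, by the addition of the row named Robo4, with a minimum of 1 count, with unadjusted p and with the replicate block, and 1 to 2 with a library left out. Over all genes, 71 were called. This count was 109 with a minimum of 1 count, 374 with unadjusted p, 341 without the fold-change threshold, and 39 to 112 with a library left out, 39 without Hcy replicate 1 or Hcy replicate 2, 46 without Hcy replicate 3, 47 without Veh replicate 2 and 112 without Veh replicate 3. Partner genes called were 2 without the fold-change threshold and 0 in each fit with a library left out. Summing the Robo4 rows turned its log2 fold change from 2.04 to -0.0056. With a library left out, signs turned for Slit2 (-0.94 to 0.51), Rac1 (-0.033 to 0.063), Ext1 (-0.054 to 0.018), Sdc3 (-0.031 to 0.083), Adam10 (-0.024 to 0.16) and Ndst2 (-4.11 to 0.0023). The cause of these shifts was not tested. Same-numbered Hcy and Veh libraries deviated from their group means with correlations of -0.03, 0.20 and 0.05, so the numbers were not taken as pairs, and not every library correlated best with its own number. With the replicate block 82 genes were called in all, and the row named Robo4 stood at 1.82. Low counts, mostly at or under 3 reads, limit Robo1, Robo2 and Slit1. Slit2 is limited by its spread between libraries, from 2 to 18 reads.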
